A study of Mus musculus with 24 samples.

Results

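Matrix Gla protein (Mgp) and 9 other genes of the noncollagen extracellular matrix were followed in C2C12 cells, an established mouse myoblast line, at 2 oxygen levels. The genes were fibronectin (Fn1), osteopontin (Spp1), periostin (Postn), Sparc, decorin (Dcn), biglycan (Bgn), lumican (Lum), tenascin C (Tnc) and thrombospondin 1 (Thbs1), which made 10 of the 24043 gene symbols in the deposited expression table. The set was chosen by the measured Mgp levels at 21% oxygen, whose mean was 100.5-fold lower after the change to differentiation medium, so this contrast is described below for the 10 genes without a test. Gene expression was measured by stranded total RNA-seq in 4 groups of 2 libraries (replicates A and B). Cells of the growth medium groups were kept in DMEM with 10% fetal bovine serum, below confluence, at 21% oxygen (normoxia) or 2% oxygen (hypoxia). Cells of the differentiation medium groups were kept at the same 2 oxygen levels in DMEM with 2% horse serum and a supplement of insulin, transferrin and selenium, which lets myoblasts leave the cell cycle and fuse into myotubes. The medium change therefore alters serum, supplement, density and time together, and the length of differentiation and of hypoxia is not given in the sources used here. The replicates are described as biological, without saying whether they came from separate thaws or days. The series also holds 16 chromatin immunoprecipitation and input libraries, which were not analysed here.

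Mgp is a small secreted protein whose glutamate residues are carboxylated by a vitamin K-dependent enzyme into Gla residues that bind calcium. It is known for keeping cartilage and artery walls free of mineral and for binding bone morphogenetic proteins. The other 9 proteins fall into adhesive glycoproteins that cells grip through integrins (fibronectin), secreted phosphoproteins (osteopontin), small leucine-rich proteoglycans that coat collagen fibrils (decorin, biglycan, lumican) and matricellular proteins, which act on cells more than they carry load (Sparc, periostin, tenascin C, thrombospondin 1). In muscle these proteins form the connective tissue around fibres and are made largely by fibroblasts, and cultured myoblasts secrete several of them.

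In the data below, Spp1 and Bgn were lower in differentiation medium and Postn was higher, while all 3 were lower in hypoxia. The upstream sequences of these 3 of the 10 genes are shown because their courses with medium differed. Each is the 250 bases before an annotated transcription start on the plus strand, from RefSeq on build GRCm38.p6, at chr5:104434861-104435110 for Spp1 (the first of 2 starts), chrX:73483351-73483600 for Bgn and chr3:54360857-54361106 for Postn (the second of 2 starts). Capitals mark the motif matches named in the next paragraph.
Spp1: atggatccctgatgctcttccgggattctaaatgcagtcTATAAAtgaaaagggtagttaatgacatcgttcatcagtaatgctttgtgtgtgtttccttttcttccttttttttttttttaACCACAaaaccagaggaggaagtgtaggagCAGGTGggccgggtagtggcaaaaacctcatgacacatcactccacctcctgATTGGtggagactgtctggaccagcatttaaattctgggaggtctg
Bgn: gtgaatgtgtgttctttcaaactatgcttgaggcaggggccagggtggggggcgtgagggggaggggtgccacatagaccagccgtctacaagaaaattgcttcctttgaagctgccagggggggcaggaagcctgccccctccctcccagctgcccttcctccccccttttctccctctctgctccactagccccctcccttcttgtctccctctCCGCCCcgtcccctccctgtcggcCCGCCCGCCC
Postn: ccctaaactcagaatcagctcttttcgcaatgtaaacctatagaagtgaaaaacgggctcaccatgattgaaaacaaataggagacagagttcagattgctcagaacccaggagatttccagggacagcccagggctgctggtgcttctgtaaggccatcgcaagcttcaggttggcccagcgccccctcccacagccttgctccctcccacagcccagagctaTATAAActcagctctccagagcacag

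The RefSeq promoter table held 5 of the 10 genes (Spp1, Postn, Sparc, Bgn and Tnc). Motifs were searched on both strands of these 250 bases as TATAAA (the core promoter box), CANNTG (E-box, the site of myogenic helix-loop-helix factors), ACGTG (the core of the hypoxia response element), TGANTCA (AP-1), TGTGGT (RUNX), GGGCGG (GC box), CCAAT and the CArG box. The Spp1 window held TATAAA from 211 to 206 bases before the start, the reverse complement of the RUNX motif from 128 to 123, an E-box from 98 to 93 and the reverse complement of CCAAT from 46 to 42. The Bgn window held 3 matches to the GC box on the reverse strand, from 34 to 29, 10 to 5 and 6 to 1 bases before the start, of which the last 2 overlap, and an E-box from 102 to 97 that is left in lower case. In the Postn window TATAAA stood 26 to 21 bases before the start. Spp1 and Postn each have another annotated start, whose window is not printed. That window of Spp1 held E-boxes from 218 to 213 and from 207 to 202, without TATAAA, RUNX or CCAAT. That of Postn held none of the motifs searched. Among 32851 mouse promoter windows of the same length, 12.4% held TATAAA, 66.2% an E-box, 14.0% the RUNX motif, 32.7% the GC box and 33.8% CCAAT. The hypoxia core ACGTG, found in 16.6% of all windows, was in none of the windows of these 5 genes. These matches describe letters and not bound sites.

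Expression is given as FPKM, fragments normalised to transcript length and library size, which allows levels to be compared between genes. The libraries summed to between 480018 and 534167 FPKM, and their relative depth ran from 0.635 (hypoxic differentiation replicate B) to 1 (replicate A of the same group). It was read from the most frequent ratio of low values between each library and a reference library. Absolute depth is unknown. Replicates correlated across 12389 genes with r from 0.958 to 0.983 (across genes, which are not independent), and 613 genes differed more than 2-fold between the hypoxic differentiation replicates against 56 to 71 in the other groups. Carbonic anhydrase 9 (Car9), a hypoxia-induced gene, stood at 43.9 to 83.2 FPKM in the 4 normoxic libraries and at 662 to 886 in the 4 hypoxic libraries. The 5 myoblast markers summed to 453 to 535 FPKM in growth medium and 938 to 950.0 in differentiation medium at 21% oxygen, and to 125 to 130 and 84.1 to 124 at 2% oxygen. Myod1, a defining factor of myoblasts, was 139 and 108 FPKM in normoxic growth medium, 25.1 and 26.1 in hypoxic growth medium and 6.95 and 11.8 in hypoxic differentiation medium, and the part of this difference in the hypoxia comparisons below was not tested. The summed level of 6 myotube markers was 7628 to 7646 FPKM in normoxic differentiation medium and 3.43 to 32.9 in the other 6 libraries. In hypoxic differentiation medium it was 9.72 to 17.4 FPKM. Differentiation at 2% oxygen therefore names the change of medium below, and not the formation of myotubes. The comparison of hypoxia in differentiation medium likewise sets cultures with high myotube markers against cultures with low ones. A fall or rise with hypoxia in that medium is a difference between these groups, and the part of the myotube state in it was not tested. The 8 proliferation markers summed to 214 to 231 FPKM in normoxic growth medium, 39.0 to 39.4 in normoxic differentiation medium and 111 to 127 in hypoxic growth medium, but to 33.4 and 196 in replicates A and B of hypoxic differentiation medium. Marker lists of other matrix-making cells were mixed. Of 6 tendon or fibroblast markers, Tnmd and Thy1 were under 0.5 FPKM in all 8 libraries, while Pdgfrb (79.5 and 76.1 FPKM), Scx (67.0 and 66.1) and Pdgfra (10.3 and 12.0) were present in normoxic growth medium. Their sum was 155 to 158 FPKM there, 54.5 to 57.0 in normoxic differentiation medium, 78.3 to 84.8 in hypoxic growth medium and 44.8 to 50.5 in hypoxic differentiation medium. Of 7 bone markers, Sp7, Alpl and Ibsp were under 0.5 FPKM in all libraries, Runx2 was 5.77 to 16.8 and Bglap reached 93.1, and the sum was 87.1 to 105 FPKM in normoxic differentiation medium and 7.95 to 26.8 elsewhere. Of 6 cartilage markers, Acan, Matn1 and Col10a1 were under 0.5 FPKM throughout, and the sum of 8.25 to 26.9 FPKM was nearly all Sox9. Of 5 smooth muscle markers Myh11 was under 0.5 FPKM throughout, but Acta2 was 66.5 to 397 FPKM, and the sum was 277 to 355 FPKM in normoxic growth, 417 to 424 in normoxic differentiation, 155 to 159 in hypoxic growth and 130.4 to 320.0 in hypoxic differentiation medium. The sum of 6 adipocyte markers was 1.78 to 6.55 FPKM, and all 4 endothelial markers were under 0.5 FPKM in every library. Of the 4 macrophage markers, Ptprc and Csf1r were also under 0.5 FPKM in all libraries, but the summed level was 26.5 to 43.2 FPKM in hypoxic differentiation medium against 1.92 to 4.39 elsewhere, almost wholly from the lysosomal gene Cd68.

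Mgp was among the most abundant transcripts of normoxic growth medium and stood at a low level in normoxic differentiation medium, with the hypoxic groups between. Replicates A and B of that group, in the order used for all later pairs of values, held 672 and 583 FPKM and ranked 114 and 113 among all genes of those libraries. In normoxic differentiation medium it was 5.31 and 7.18 FPKM, at ranks 7947 and 7001. At 2% oxygen it was 66.7 and 82.0 FPKM in growth medium and 33.2 and 13.9 in differentiation medium. The order of the groups was therefore normoxic growth, hypoxic growth, hypoxic differentiation and normoxic differentiation medium, with no overlap between neighbours in that order.

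Because the normoxic contrast between media chose Mgp, its difference of −6.45 ± 0.37 in log2(FPKM + 1) (SE, 2 libraries a group) is a description. Hypoxic growth medium was 8.44-fold below normoxic growth medium in mean FPKM (log2 difference −3.06 ± 0.37), and hypoxic differentiation medium was 3.78-fold above normoxic differentiation medium (1.65 ± 0.37). Both use a group of the choosing contrast and were not tested. The comparison whose means share no library with it is differentiation at 2% oxygen, although the fit took its spread from all 8 libraries. In this comparison Mgp fell from 74.3 ± 10.8 to 23.6 ± 13.7 FPKM (SD, n = 2), 3.16-fold (log2 change −1.73 ± 0.37, adjusted p 0.0109, limma). This call was lost without replicate B of hypoxic growth medium (log2 change −1.58, adjusted p 0.0719) and when only the 4 hypoxic libraries were fitted (adjusted p 0.0698), and without replicate B of hypoxic differentiation medium the change was −1.13 (adjusted p 0.00542). The difference of the differentiation changes at the 2 oxygen levels was 4.72 ± 0.52 log2 units, the largest of the 9 measured genes, and was not tested because it contains the choosing contrast. The hypoxic differentiation libraries that differed in Mgp, 33.2 FPKM in A and 13.9 in B, are those that differed in proliferation markers (33.4 and 196 FPKM). Between the normoxic groups these markers went the same way as Mgp, at 214 to 231 FPKM in growth and 39.0 to 39.4 in differentiation medium. The part of proliferation in the Mgp levels was not tested. The summed tendon or fibroblast markers were also highest in normoxic growth medium, where Mgp was highest. They were 155 to 158 FPKM there and 44.8 to 84.8 in the other 6 libraries. Between the differentiation medium groups they went the other way from Mgp, at 54.5 to 57.0 FPKM in normoxia and 44.8 to 50.5 in hypoxia. Their part in the Mgp levels was not tested. In bulk RNA, fewer cells that make a transcript and less transcript per cell cannot be told apart.

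**Figure D1:**
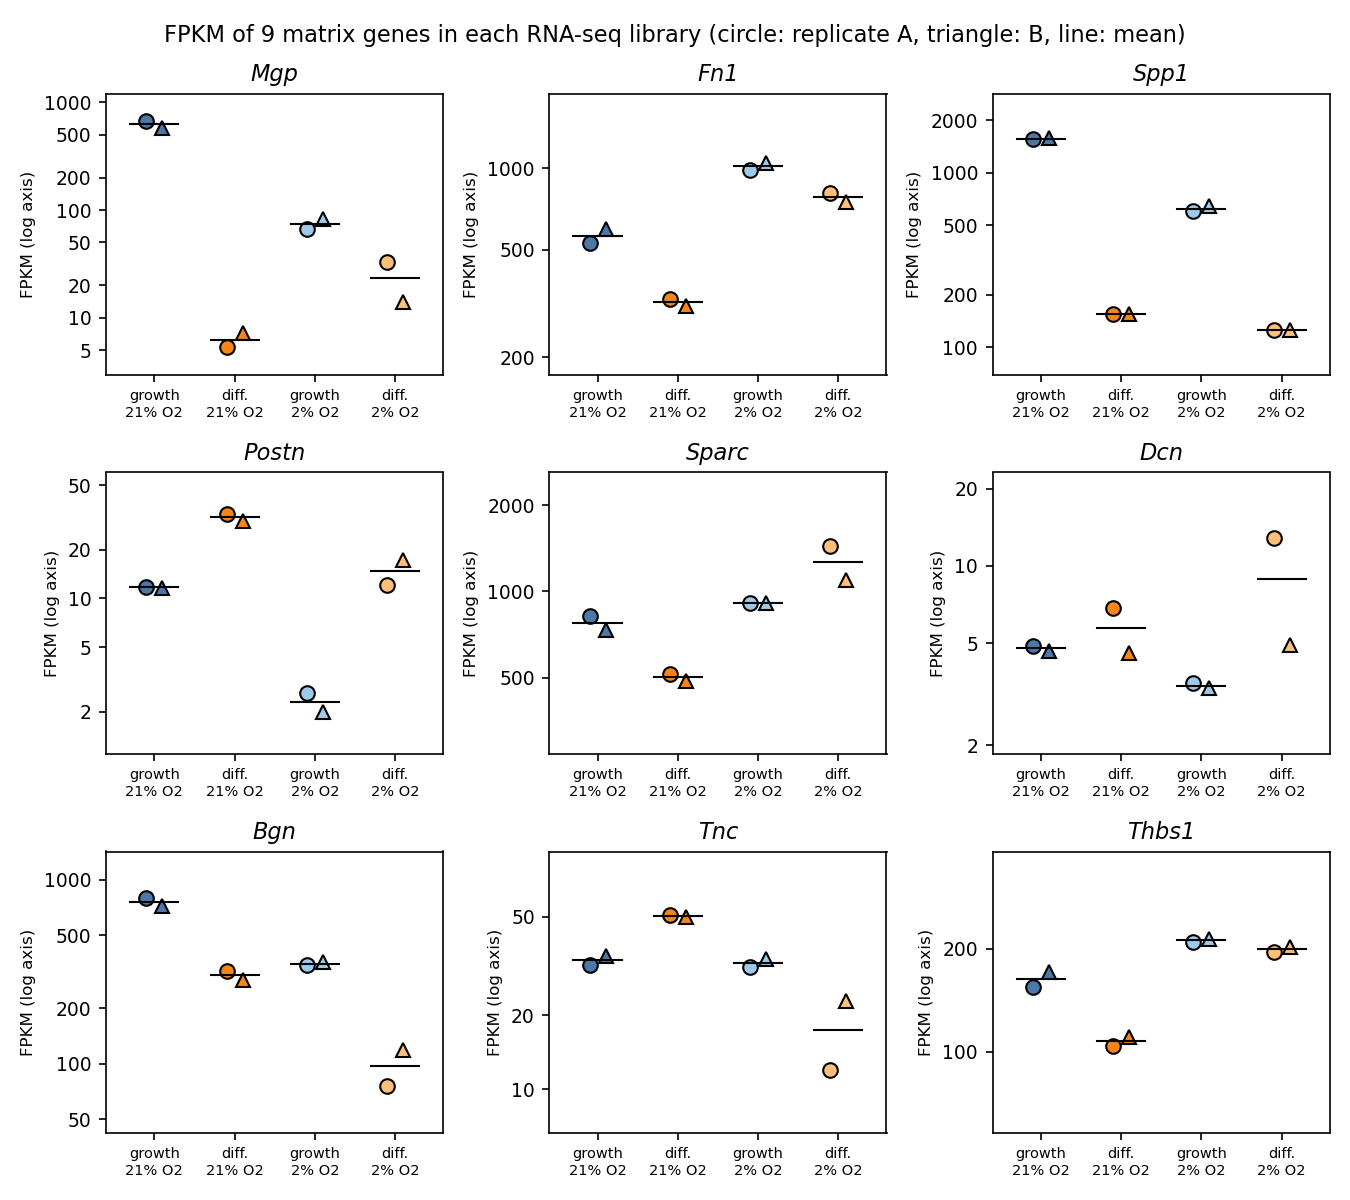
FPKM on a log axis of 9 matrix genes in each of the 8 RNA-seq libraries, by medium and oxygen; circles are replicate A, triangles replicate B and lines the means of 2 libraries. Mgp runs from 672 FPKM in normoxic growth medium to 5.31 in normoxic differentiation medium, whereas Fn1 is highest in hypoxic growth medium and Postn lowest there; Lum is left out since it was listed at 0 in 7 libraries.

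Together the 10 genes took 0.871% and 0.923% of all FPKM in normoxic growth medium and 0.310% and 0.294% in normoxic differentiation medium. The shares lay between these in hypoxic growth medium (0.607% and 0.617%) and hypoxic differentiation medium (0.520% and 0.461%). The leading gene changed with the group. Spp1 made up 34.1% and 35.7% of the sum in normoxic growth medium, Fn1 31.2% and 31.8% in hypoxic growth medium, and Sparc 33.9% of it in both libraries of normoxic differentiation medium. In hypoxic differentiation medium Sparc took 53.0% and 46.6%.

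**Figure D2:**
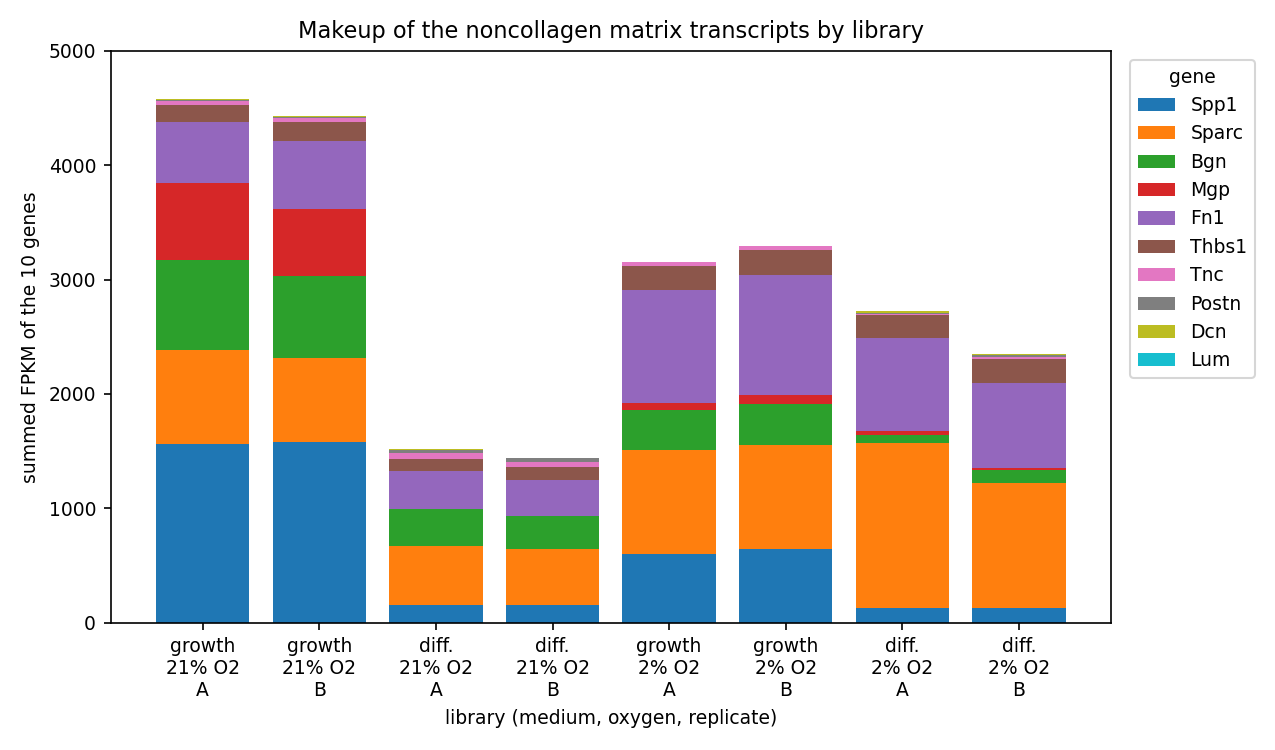
Summed FPKM of the 10 genes in each library, split by gene, with medium, oxygen and replicate on the horizontal axis. The bars reach 4577 and 4430 FPKM in normoxic growth medium and 1521 and 1443 in normoxic differentiation medium, and Sparc is the largest piece of both hypoxic differentiation bars.

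Fibronectin, the fibril-forming glycoprotein to which integrins attach, was higher in hypoxia in both media. Fn1 was 528 and 594 FPKM in growth medium and 328 and 311 in differentiation medium at 21% oxygen, and 986 and 1049 in growth medium and 813 and 748 in differentiation medium at 2% oxygen. All 4 hypoxic libraries lay above all 4 normoxic ones, and within each oxygen level both growth medium libraries lay above both differentiation medium libraries. Fn1 rose with hypoxia in growth medium 1.81-fold (log2 change 0.86 ± 0.10, adjusted p 0.000922) and in differentiation medium 2.44-fold (1.29 ± 0.10, adjusted p 5.00e-05). On differentiation in hypoxia it fell 1.30-fold (log2 change −0.38 ± 0.10, adjusted p 0.0227), and in normoxia the untested difference was −0.81 ± 0.10. The call for differentiation in hypoxia was lost without either replicate of normoxic differentiation medium (adjusted p 0.0546 without A and without B) or of hypoxic growth medium (0.0809 without A and 0.139 without B), and with only the 4 hypoxic libraries (0.0792).

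Osteopontin, a secreted phosphoprotein that binds integrins and CD44, was the most abundant of the 10 transcripts in normoxic growth medium. Spp1 stood there at 1560.2 and 1580.1 FPKM, at ranks 43 and 34 of all genes. It was 156 and 154 FPKM in normoxic differentiation medium, 603 and 642 in hypoxic growth medium, and 126 and 126 in hypoxic differentiation medium. The groups did not overlap, and within either medium the hypoxic libraries were the lower. Spp1 fell 4.95-fold on differentiation in hypoxia (log2 change −2.30 ± 0.07, adjusted p 2.86e-05), and the untested normoxic difference was 10.1-fold (−3.33 ± 0.07). Hypoxia lowered it 2.52-fold in growth medium (log2 change −1.33 ± 0.07, adjusted p 6.92e-05) and 1.23-fold in differentiation medium (−0.30 ± 0.07, adjusted p 0.00961). The last call was lost without replicate A or B of normoxic differentiation medium (adjusted p 0.0617 and 0.0511).

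Among the small leucine-rich proteoglycans, biglycan was abundant, decorin was low and lumican was listed at 0 in nearly every library. Bgn was 790.4 and 719 FPKM in growth medium and 320.4 and 286 in differentiation medium at 21% oxygen, and 343 and 357 in growth medium and 75.9 and 119 in differentiation medium at 2% oxygen. It was lower in differentiation medium at both oxygen levels and lower in hypoxia in both media, with no overlap between groups. The tested falls were 3.58-fold on differentiation in hypoxia (log2 change −1.87 ± 0.20, adjusted p 0.00102), 2.16-fold with hypoxia in growth medium (−1.11 ± 0.20, adjusted p 0.00531) and 3.11-fold with hypoxia in differentiation medium (−1.66 ± 0.20, adjusted p 0.000384). The untested difference in normoxia was 2.49-fold (−1.31 ± 0.20), and the 2 differentiation differences were 0.55 ± 0.28 log2 units apart, the hypoxic one being the larger fall. The tested calls of Bgn held under every alternative run.

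Decorin, which binds collagen fibrils and transforming growth factor beta, was 4.88 and 4.67 FPKM in normoxic growth medium and 6.83 and 4.58 in normoxic differentiation medium. Dcn was 3.48 and 3.33 FPKM in hypoxic growth medium, the lowest group, and 12.9 and 4.90 in hypoxic differentiation medium. Normoxic differentiation medium overlapped both normoxic growth and hypoxic differentiation medium, and the highest library was replicate A of hypoxic differentiation medium. No comparison of Dcn passed the threshold, with a log2 difference of 1.04 (95% interval 0.14 to 1.94, adjusted p 0.0660) on differentiation in hypoxia, −0.39 (−1.29 to 0.51, adjusted p 0.441) with hypoxia in growth medium and 0.45 (−0.45 to 1.35, adjusted p 0.320) with hypoxia in differentiation medium. These values rest on hypoxic differentiation replicate A or B: without B, the first difference was 1.65 (adjusted p 0.00150) and the third 1.07 (adjusted p 0.00322), and without A the third was −0.16. With only the 4 growth medium libraries in the fit, the second passed (adjusted p 0.0246). Lum was listed at 0 in 7 libraries and at 0.0364 FPKM in replicate B of hypoxic differentiation medium, so it did not pass the filter of a mean of at least 1 FPKM in some group.

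The 4 matricellular genes followed 4 different courses. Sparc, a collagen-binding glycoprotein also called osteonectin, was 824 and 731 FPKM in growth medium and 515 and 489 in differentiation medium at 21% oxygen, and 911 and 914 in growth medium and 1443 and 1094 in differentiation medium at 2% oxygen. Every differentiation library was below the growth libraries in normoxia and above them in hypoxia. The difference with medium was −0.63 ± 0.14 log2 units in normoxia (not tested) and a rise of 0.46 ± 0.14 in hypoxia (1.39-fold, adjusted p 0.0424). That rise was not held: it missed the threshold without any 1 library other than hypoxic differentiation replicate B (adjusted p 0.0558 to 0.159), after median-of-ratios scaling (0.127) or upper-quartile scaling (0.165), without the filter on low values (0.0732) and with only the 4 hypoxic libraries (0.138), and without hypoxic differentiation replicate A it was 0.26 (0.0759). Hypoxia raised Sparc 2.52-fold in differentiation medium (log2 change 1.32 ± 0.14, adjusted p 0.000249), while in growth medium the difference of 0.23 (95% interval −0.11 to 0.58) did not pass (adjusted p 0.239).

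Periostin, a matricellular protein of collagen-rich tissues and healing wounds, ran in the opposite direction to Mgp with medium. Postn was 11.8 and 11.6 FPKM in growth medium and 33.3 and 30.0 in differentiation medium at 21% oxygen, and 2.63 and 1.98 in growth medium and 12.1 and 17.3 in differentiation medium at 2% oxygen. The differentiation libraries were the higher at each oxygen level and the hypoxic libraries the lower in each medium. It rose 6.39-fold on differentiation in hypoxia (log2 change 2.24 ± 0.18, adjusted p 0.000444), and the untested normoxic difference was 2.70-fold (1.36 ± 0.18). Hypoxia lowered it 5.08-fold in growth medium (log2 change −1.95 ± 0.18, adjusted p 0.000371) and 2.15-fold in differentiation medium (−1.07 ± 0.18, adjusted p 0.00174). Hypoxic differentiation and normoxic growth medium were neighbours in the order of levels, at 14.7 ± 3.69 and 11.7 ± 0.168 FPKM (SD, n = 2), and their libraries did not overlap although their means were closer than 1 SD of the former.

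Tenascin C, an anti-adhesive protein of developing and injured tissue, was 31.9 and 34.7 FPKM in growth medium and 51.1 and 49.7 in differentiation medium at 21% oxygen, and 31.2 and 33.9 in growth medium and 12.0 and 22.7 in differentiation medium at 2% oxygen. Differentiation medium therefore held the highest Tnc libraries in normoxia and the lowest in hypoxia, while the 2 growth medium groups overlapped. Tnc fell 1.87-fold on differentiation in hypoxia (log2 change −0.93 ± 0.25, adjusted p 0.0258) against an untested difference of 0.58 ± 0.25 in normoxia. Hypoxia lowered it 2.90-fold in differentiation medium (log2 change −1.55 ± 0.25, adjusted p 0.00159). In growth medium the difference of −0.03 (95% interval −0.63 to 0.57, adjusted p 0.939) did not pass, and it was positive after either rescaling of the libraries. The call for differentiation in hypoxia was lost without replicate A or B of normoxic differentiation medium (adjusted p 0.0584 and 0.0600), without A or B of hypoxic growth medium (0.0897 and 0.124) and with only the 4 hypoxic libraries (0.116), and without replicate A of hypoxic differentiation medium the change was −0.50 (adjusted p 0.00566).

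Thrombospondin 1, which binds CD36 and CD47 and activates latent transforming growth factor beta, resembled fibronectin in its order of groups. Thbs1 was 154 and 171 FPKM in growth medium and 104 and 110.1 in differentiation medium at 21% oxygen, and 210.0 and 214 in growth medium and 196 and 203 in differentiation medium at 2% oxygen. All hypoxic libraries were above all normoxic ones. Hypoxia raised it 1.30-fold in growth medium (log2 change 0.38 ± 0.08, adjusted p 0.00934) and 1.86-fold in differentiation medium (0.89 ± 0.08, adjusted p 9.73e-05). The growth medium call was lost without replicate A or B of hypoxic growth medium (adjusted p 0.0557 and 0.0661). On differentiation in hypoxia the difference of −0.09 (95% interval −0.28 to 0.10, adjusted p 0.407) did not pass, and in normoxia it was −0.60 ± 0.08 (not tested).

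Counted over the set, differentiation in hypoxia changed 7 of the 9 genes that passed the filter, where 40.9% of all 12389 tested genes passed the same threshold. Postn and Sparc rose, and Mgp, Fn1, Spp1, Bgn and Tnc fell, against 23.3% of all genes higher and 17.6% lower. The median log2 difference of the 9 genes was −0.38, beside 0.07 over all genes. This count depended on the libraries: it was 3 with the 4 hypoxic libraries alone, 3 without replicate B of hypoxic growth medium, and 4 without replicate A of that group or without either replicate of normoxic differentiation medium. Over the same settings fewer genes were called in the whole table too, 2867 in place of 5073 with the hypoxic libraries alone and 2501 without replicate B of hypoxic growth medium. Spp1, Postn and Bgn were past the threshold under every alternative run.

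Hypoxia in growth medium changed 5 of the 8 genes other than Mgp and Lum, with Fn1 and Thbs1 higher and Spp1, Postn and Bgn lower, beside 41.4% of all genes (13.5% higher and 28% lower). Their median log2 difference was −0.21, and that of all genes was −0.14. Hypoxia in differentiation medium changed 7 of the 8, with Fn1, Sparc and Thbs1 higher and Spp1, Postn, Bgn and Tnc lower, beside 65.2% of all genes (37.5% higher and 27.7% lower), a comparison in which most genes passed. The median here was 0.08, and 0.15 over all genes. In normoxic differentiation, the contrast that chose the set, 6 of the 9 genes had both differentiation libraries below both growth libraries, 2 had both above and 1 overlapped. Of all tested genes, 52.9% were apart in the lower direction and 34.1% in the higher, and 66.5% were past the threshold, 25.5% higher and 41% lower.

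**Figure D3:**
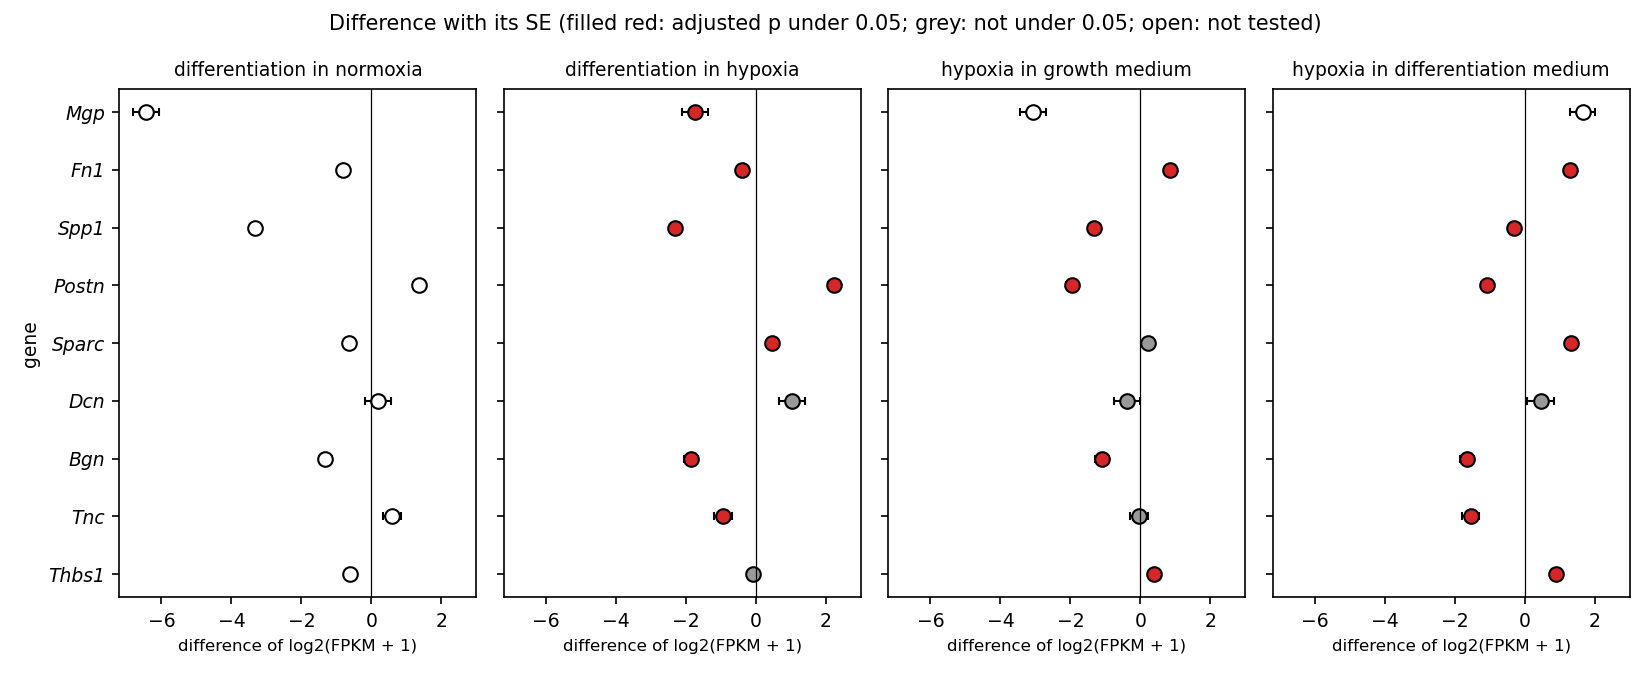
Difference of log2(FPKM + 1) with its SE for 9 genes (vertical axis) in the 4 comparisons, each of 2 libraries against 2; red points passed an adjusted p of 0.05, grey points did not, and open points were not tested. Bgn and Spp1 lie left of 0 in all 4 panels, Postn lies right of 0 for both differentiation comparisons and left for both hypoxia comparisons, and Sparc and Tnc change sides between the differentiation panels.

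The differentiation difference of each gene at 2% oxygen, less that at 21%, was positive for 7 of the 9 genes. It was 1.03 ± 0.10 log2 units for Spp1, 1.09 ± 0.20 for Sparc, 0.88 ± 0.25 for Postn, 0.51 ± 0.11 for Thbs1, 0.43 ± 0.14 for Fn1 and 0.84 ± 0.53 for Dcn, beside 4.72 for Mgp. It was negative for Bgn (−0.55 ± 0.28) and for Tnc (−1.52 ± 0.35). These values are descriptions, since they contain the choosing contrast.

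Among genes of 20 FPKM or more, those most like Mgp over the 8 libraries were not matrix genes, apart from a secreted leucine-rich protein. Among 5166 genes with a mean of at least 20 FPKM in some group, the highest Pearson correlations with Mgp on log2(FPKM + 1) were those of Ehd2 (a membrane-remodelling ATPase of caveolae, r = 0.992), Mgst1 (a microsomal glutathione transferase, 0.991), Kctd2 (0.991), Slc25a17 (a peroxisomal carrier, 0.991) and Lrrc17 (a secreted leucine-rich repeat protein, 0.989). Mgst1 ran from 42.1 and 43.3 FPKM in normoxic growth medium through 14.4 and 15.4 in hypoxic growth and 7.54 and 5.82 in hypoxic differentiation medium to 1.97 and 2.53 in normoxic differentiation medium. Ehd2 ran from 109.6 and 99.1 FPKM through 58.6 and 59.7 and then 52.7 and 39.1 to 31.5 and 29.0 in the same order of groups. Of the set, Spp1 was the nearest to Mgp (r = 0.928), followed by Bgn (0.639), Thbs1 (0.416), Fn1 (0.367) and Sparc (0.254), while Tnc (−0.136) and Postn (−0.468) were negative. The 8 libraries share 4 groups, so these values describe the group pattern and carry no p.

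A wider list of 107 other noncollagen matrix genes, of which 70 passed the filter, places the set among its kind. In normoxic differentiation 43 of the 70 fell and 17 rose (85.7% called, against 66.5% of all genes), with a median log2 change of −0.98 beside −0.20 over all genes. In hypoxic differentiation 40 fell and 4 rose (62.9% against 40.9%), with a median of −0.65 beside 0.07. In growth medium hypoxia lowered 31 and raised 10 (58.6% against 41.4%, median −0.40 beside −0.14), a split that was 27 and 18 after median-of-ratios scaling and 26 and 18 after upper-quartile scaling. In differentiation medium hypoxia lowered 30 and raised 21 (72.9% against 65.2%, median −0.09 beside 0.15). The list was written with results of these data known. Some of the 70 genes passed the filter through 1 group only, which favours changes between that group and the others. These were Ucma, Fmod, Aspn and Dmp1 through normoxic growth medium and Mfap4 through normoxic differentiation medium.

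**Figure D4:**
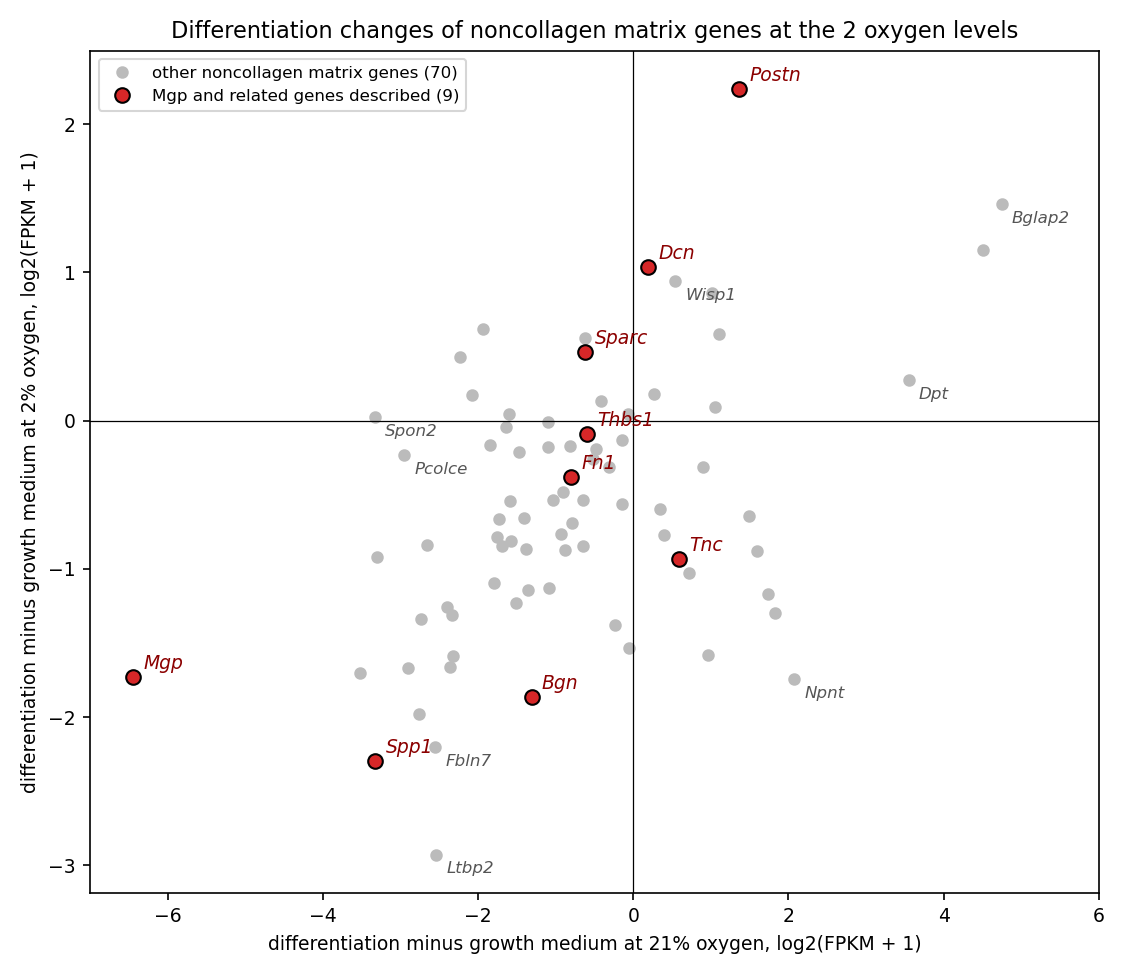
Differentiation difference in log2(FPKM + 1) at 21% oxygen (horizontal) and at 2% oxygen (vertical) for 70 other noncollagen matrix genes (grey) and 9 genes of the set (red), each point from 2 libraries against 2 at each oxygen level. Mgp is the point farthest left, at −6.45 and −1.73, and the osteocalcin gene Bglap2 the farthest right, at 4.75 and 1.46.

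Among the other Gla proteins, osteocalcin was higher in normoxic differentiation medium where Mgp was lower. Ucma, Prrg1 and Prrg2 were lower there, as Mgp was. Osteocalcin, the Gla protein of bone, is encoded by the neighbouring and nearly identical genes Bglap and Bglap2, between which the sharing of reads is not stated, so their separate values are uncertain. Bglap2 was 6.53 and 3.59 FPKM in growth medium and 167 and 148 in differentiation medium at 21% oxygen, and 1.10 and 1.13 in growth medium and 1.63 and 11.9 in differentiation medium at 2% oxygen. It rose on differentiation in normoxia (log2 change 4.75 ± 0.67, adjusted p 0.000801) and fell with hypoxia in differentiation medium (−4.76 ± 0.67, adjusted p 0.000802), as did Bglap (4.51 ± 0.67 and −4.46 ± 0.67, adjusted p 0.00104 and 0.00111). In hypoxia the differentiation difference of Bglap2 was 1.46 ± 0.67 (adjusted p 0.125). Gas6, the Gla ligand of the TAM receptor kinases, fell with hypoxia from a mean of 30.1 to 8.30 FPKM in growth medium (log2 change −1.74 ± 0.15, adjusted p 0.000314) and from 26.9 to 5.26 in differentiation medium (−2.16 ± 0.15, adjusted p 3.21e-05). Ucma, a Gla-rich cartilage protein, was low throughout, with a mean of 2.25 FPKM in normoxic growth medium and 0.0434 to 0.564 in the other groups. Only normoxic growth medium took Ucma past the filter, which favours falls from that group. It fell on normoxic differentiation (log2 change −1.64 ± 0.24, adjusted p 0.000988) and with hypoxia in growth medium (−1.10 ± 0.24, adjusted p 0.0114). On normoxic differentiation Prrg2 fell from a mean of 7.34 to 3.73 FPKM (log2 change −0.81 ± 0.16, adjusted p 0.00372). Prrg1 fell from 0.978 to 0.259 FPKM (−0.65 ± 0.21, adjusted p 0.0284). In that comparison Gas6 and Prrg4 did not pass (adjusted p 0.424 and 0.211). Of the 3 enzymes of Gla formation, 2 fell with differentiation in normoxia. The carboxylase Ggcx averaged 12.1 FPKM in growth medium and 5.10 in differentiation medium (log2 change −1.10 ± 0.10, adjusted p 0.000111), and Vkorc1, which recycles vitamin K, 64.9 and 18.7 FPKM (−1.74 ± 0.10, adjusted p 1.48e-05). Vkorc1l1, the other vitamin K epoxide reductase, did not pass (7.77 and 7.39 FPKM, log2 difference −0.06, 95% interval −0.36 to 0.23, adjusted p 0.672). On differentiation in hypoxia Vkorc1 fell by 0.67 ± 0.10 (adjusted p 0.00302), whereas Ggcx differed by −0.01 (95% interval −0.25 to 0.23, adjusted p 0.967). Of the 10 genes of Gla proteins and their carboxylation that were tested, 5 fell and 2 rose in normoxic differentiation, where 41% of all genes fell and 25.5% rose, so 70% called stands beside 66.5%. The 5 include Ucma. In hypoxic differentiation 2 fell and none rose (20% called), where 17.6% of all genes fell and 23.3% rose.

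Of the other small leucine-rich proteoglycans and their relatives, 6 of 7 fell in normoxic differentiation and 4 of 7 in hypoxic differentiation, and 5 of 7 fell with hypoxia in growth medium. Of all genes 41%, 17.6% and 28% fell in these comparisons. The 7 are those of 11 listed genes that passed the filter. The falls in normoxic differentiation and with hypoxia in growth medium include Fmod and Aspn. These passed the filter through normoxic growth medium only, which favours falls from that group. Osteoglycin (Ogn), the most abundant, was 358 and 374 FPKM in normoxic growth medium and 27.6 to 59.1 FPKM in the other 6 libraries. Hypoxia lowered Ogn in growth medium by a log2 change of −2.74 ± 0.11 (adjusted p 2.51e-05). Osteomodulin (Omd) was 10.8 and 9.99 FPKM in normoxic growth and 0.163 and 0.137 in normoxic differentiation medium, a log2 change of −3.31 ± 0.13 (adjusted p 2.87e-06) that understates a low gene and was −5.39 with a pseudocount of 0.1. The normoxic growth libraries were the highest for both genes.

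Among 13 other matricellular genes, 8 fell and 4 rose in normoxic differentiation (41% and 25.5% of all genes), and 8 fell and 1 rose in hypoxic differentiation (17.6% and 23.3% of all genes). Spondin 2 (Spon2) was 98.9 and 80.6 FPKM in normoxic growth medium and 7.52 to 15.0 FPKM in the other 6 libraries. It fell on differentiation in normoxia (log2 change −3.34 ± 0.25, adjusted p 4.22e-05) and with hypoxia in growth medium (−2.91 ± 0.25, adjusted p 0.000286). Wisp1, a CCN family protein, had the largest rise of the list past the threshold on differentiation in hypoxia, from 13.6 and 12.9 to 26.8 and 25.9 FPKM (log2 change 0.94 ± 0.08, adjusted p 0.000532). The differences of Bglap2 and Bglap were larger (1.46 and 1.15) but did not pass.

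Elastic fibre and microfibril genes gave 11 falls and 3 rises of 16 in normoxic differentiation, beside 41% and 25.5% of all genes, and 12 falls and 1 rise in hypoxic differentiation, beside 17.6% and 23.3%. The 3 rises include Mfap4, which passed the filter through normoxic differentiation medium only. The largest falls in hypoxia were those of the latent TGF-beta binding protein Ltbp2, from 30.0 and 32.1 to 1.88 and 5.18 FPKM (log2 change −2.93 ± 0.31, adjusted p 0.00103), Fbln7, from 15.1 and 16.3 to 2.93 and 2.37 (−2.20 ± 0.16, adjusted p 0.000312), and Emilin2, from 26.8 and 28.2 to 5.81 and 6.64 (−1.98 ± 0.10, adjusted p 0.000138). Emilin1 rose from 3.87 and 4.27 to 6.29 and 5.41 FPKM (log2 change 0.43 ± 0.13, adjusted p 0.0341), a call lost in 9 of 15 alternatives (adjusted p up to 0.165). In growth medium hypoxia lowered Emilin1 from 28.0 and 24.3 FPKM (−2.42 ± 0.13, adjusted p 5.98e-05). Fibulin 1 (Fbln1) fell from 61.8 and 54.8 to 4.54 and 3.76 FPKM in normoxic differentiation (−3.53 ± 0.25, adjusted p 3.73e-05). Fibulin 2 (Fbln2) was 43.6 to 65.1 FPKM in the normoxic libraries and 209 to 264 in the hypoxic ones, with rises of 1.74 ± 0.13 in growth medium and 2.30 ± 0.13 in differentiation medium (adjusted p 0.000185 and 1.15e-05). Efemp2, also called fibulin 4, was 16.4 and 13.8 FPKM in normoxic differentiation medium and 60.3 to 88.0 in the other 6 libraries, and rose with hypoxia in differentiation medium (2.35 ± 0.14, adjusted p 1.48e-05).

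Of 12 basement membrane genes, which encode the sheet that surrounds each muscle fibre, 6 rose and 4 fell in normoxic differentiation, and 1 rose and 7 fell in hypoxic differentiation. Of all genes 25.5% rose and 41% fell in the first and 23.3% rose and 17.6% fell in the second, and the difference between the counts was not tested. The laminin chain gene Lama2 went from 4.37 to 15.2 FPKM in normoxia (log2 change 1.59 ± 0.12, adjusted p 4.21e-05) and from 2.98 to 1.17 in hypoxia (−0.88 ± 0.12, adjusted p 0.00208), and agrin (Agrn) from 14.7 to 43.2 FPKM (1.50 ± 0.11, adjusted p 4.32e-05) and from 9.71 to 5.89 (−0.64 ± 0.11, adjusted p 0.00516). Both were picked after their values were seen. Lamb3, a chain of epithelial laminin, was 2.76 to 4.70 FPKM in the normoxic libraries and 9.43 to 17.1 in the hypoxic ones, and rose with hypoxia in growth medium (1.57 ± 0.24, adjusted p 0.00265).

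Of 10 other adhesive and matrix-associated genes tested, 7 fell and 2 rose in normoxic differentiation, where 41% of all genes fell and 25.5% rose. The procollagen processing enhancer Pcolce was 609 and 494 FPKM in growth medium and 71.5 and 67.9 in differentiation medium at 21% oxygen and 256 to 349 in the 4 hypoxic libraries, falling on normoxic differentiation (log2 change −2.96 ± 0.14, adjusted p 5.91e-06) and rising with hypoxia in differentiation medium (1.99 ± 0.14, adjusted p 3.02e-05). Dermatopontin (Dpt) was 22.7 and 22.1 FPKM in normoxic differentiation medium and 0.537 to 1.20 FPKM in the other 6 libraries, with changes of 3.55 ± 0.16 on normoxic differentiation and −3.65 ± 0.16 with hypoxia in differentiation medium (adjusted p 5.48e-06 and 4.13e-06). Nephronectin (Npnt), an integrin ligand, was 58.2 and 60.6 FPKM in normoxic differentiation medium, 11.1 to 13.9 in growth medium and 1.26 and 6.13 in hypoxic differentiation medium. It rose on normoxic differentiation (2.08 ± 0.47, adjusted p 0.00723) and fell with hypoxia in differentiation medium (−3.91 ± 0.47, adjusted p 0.000384). Its fall on hypoxic differentiation (−1.74 ± 0.47, adjusted p 0.0258) was lost in 6 of 15 alternatives (adjusted p up to 0.122), with a change of −0.92 without replicate A of hypoxic differentiation medium.

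Hypoxia raised Vwa1, a matrix protein with a von Willebrand factor A domain, from 12.9 and 10.9 to 77.2 and 84.2 FPKM in growth medium (log2 change 2.67 ± 0.16, adjusted p 8.81e-05) and from 5.97 and 4.14 to 74.0 and 68.4 in differentiation medium (3.59 ± 0.16, adjusted p 4.03e-06), the largest rise of the list in both. Fndc1 was 36.2 to 48.9 FPKM in the normoxic and 132 to 214 in the hypoxic libraries, a rise of 1.93 ± 0.21 in growth medium (adjusted p 0.000742). Srpx2, a sushi-repeat protein, was 45.0 and 41.8 FPKM in normoxic growth medium and 6.81 to 11.8 in the other 6 libraries. It fell with hypoxia in growth medium (−2.44 ± 0.10, adjusted p 2.51e-05) and rose on differentiation in hypoxia (0.62 ± 0.10, adjusted p 0.00360).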

How the data were processed

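RNA-seq was made from 8 C2C12 libraries, 2 in each of 4 groups of medium and oxygen, assigned by their titles. The authors deposited FPKM per gene symbol and library, and the submitters' processing notes name STAR 2.5.1b, Cufflinks 2.2.1 and build mm9 without saying which step each served. Annotation, strand setting and scaling between libraries are not given in the sources used here, and no absolute depth can be read from FPKM. The genes of the set and the wider lists were chosen with earlier results of these data known.

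From the deposited FPKM, limma 3.58.1 (R 4.3.3; lmFit and eBayes with an intensity trend) was run on log2(FPKM + 1) for the 12389 genes whose group mean reached 1 FPKM in any group. All 8 libraries were fitted with 4 group means, leaving 4 residual degrees of freedom beside 2.61 prior ones. Tests are two-sided, with Benjamini-Hochberg adjustment over all 12389 genes and a threshold of 0.05. Differences on this scale understate those of low genes, and folds are ratios of mean FPKM. The script was tested on simulated data. Named genes of the wider list are, in each comparison and direction, the 4 largest called changes among genes averaging 5 FPKM or more in the higher group. Gas6, Ucma, Prrg1, Prrg2, Prrg4, Ggcx, Vkorc1, Vkorc1l1, Lama2, Agrn, Fmod, Aspn, Dmp1 and Mfap4 were added after their values were seen. Genes most like Mgp are the 5 with the highest Pearson correlation. The alternatives were a pseudocount of 0.1, no filter or one of 5 FPKM, median-of-ratios and upper-quartile scaling, only the libraries compared, a replicate block, a log2 change of at least 1, and each library left out in turn, where the lone library of a group is assumed to vary like the others. For the named genes of the wider list these settings, other than the minimum log2 change, were added after seeing the data.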

Additional observations from a re-analysis of the deposited data

Results flagged for a closer look

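For 3 genes, every library of 1 group moved one way and every library of the matching group the other way under the same contrast. Mgp had a log2 difference with hypoxia of −3.06 in growth medium and 1.65 in differentiation medium. Sparc had a log2 difference with differentiation of −0.63 in normoxia and 0.46 in hypoxia. For Tnc the differentiation difference was 0.58 in normoxia and −0.93 in hypoxia. These differences between groups were not tested, because they contain the contrast by which the genes were chosen.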

How the results depend on the processing

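With 2 libraries a group, spread was shared over all genes and groups, and small calls depended on it. Of 176 recomputed counts, 157 stayed within 1.5 times. The genes of the set called on differentiation in hypoxia, 7, became 3 with only the libraries compared, 4 with a log2 change of at least 1, and 3 to 8 when 1 library was left out. With hypoxia in growth medium 5 became 3 with a log2 change of at least 1. The same minimum took the other matrix genes from 44 to 20 (differentiation in hypoxia), from 41 to 23 (hypoxia in growth medium) and from 51 to 32 (hypoxia in differentiation medium). Over all genes it took 8241 to 3542, 5073 to 925, 5135 to 1268 and 8075 to 3420 in the order of differentiation in normoxia and in hypoxia and of hypoxia in growth and in differentiation medium. Without replicate A or B of hypoxic growth medium, 5073 became 2688 or 2501 and 5135 became 2997 or 3083. The split of higher and lower calls over all genes moved with scaling, from 3161 and 5080 to 4341 and 3755 under median-of-ratios for differentiation in normoxia, from 1672 and 3463 to 2100 and 2740 (2380 and 2448 under upper-quartile) for hypoxia in growth medium, and from 4644 and 3431 to 3760 and 4333 for hypoxia in differentiation medium. The Tnc difference with hypoxia in growth medium was 0.0837 under median-of-ratios, 0.136 under upper-quartile scaling and −0.0901 to 0.0280 with 1 library left out, and the Dcn difference with hypoxia in differentiation medium ran from −0.16 to 1.07 with 1 library left out. The cause was not tested. The letters A and B showed no shared shift between groups (correlations of their within-group deviations −0.166 to 0.042). These correlations cannot tell whether libraries of the same letter were made together. With the replicate block 8 genes of the set were called on differentiation in hypoxia (Dcn added, adjusted p 0.0444), 5 with hypoxia in growth medium and 7 in differentiation medium. The other matrix genes called under the block numbered 60, 42, 38 and 52 in the order above. All 15 untested differences that moved by more than 1 SD were normoxic differentiation differences under another scaling, and none turned its direction.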
